A study of Mus musculus with 8 samples.

Results

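The muscle miRNAs described here are mmu-miR-1, mmu-miR-133a, mmu-miR-133b and mmu-miR-206, 4 of the 342 mouse miRNAs or shared-probe pairs named in the deposited comparison sheets. They were found by name, with passenger strands left out, and each had 1 probe. All 4 probes were among the 431 features of the deposited ratio table, of which 272 could be named. Mature miRNAs were measured on 8 single-colour arrays, from cultures of mouse embryonic fibroblasts (MEFs), the connective-tissue cells that grow out of a dissociated embryo. The embryos were ATM-/- and ATM+/+ littermates, and the ATM-/- cells lack ATM, the kinase that starts signalling from broken DNA. Both genotypes were given neocarzinostatin (NCS), a drug that breaks DNA as ionizing radiation does, and were harvested at 0, 4, 8 and 24 h. The sources used here give neither the dose nor the embryonic stage. One array was made for each genotype and time, from 4 µg of total RNA, so no group has replicates and precision is limited by the number of arrays. The 3 treated times of a genotype share its single 0 h array.

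miRNAs guide the silencing of messenger RNAs that pair with their seed, the stretch of bases near the 5′ end. miR-1, miR-133 and miR-206 are known as the muscle miRNAs (myomiRs). They are transcribed under the control of myogenic factors such as MyoD, SRF and MEF2. Their loci pair a hairpin of the miR-1/miR-206 seed family with a hairpin of the miR-133 family. miR-1 is the main form in heart and skeletal muscle and promotes differentiation, as does miR-206, which is restricted to skeletal muscle. miR-133a acts on SRF and supports myoblast proliferation, and miR-133b is its near relative, which differs at the 3′ end alone. Fibroblasts are not a typical source of these miRNAs, and miRNAs this alike may share signal between probes, which was not tested.

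The mature sequences of the skeletal-muscle pair are shown because they place miR-206 and miR-133b side by side in the genome while giving them different seeds. Both come from RefSeq on GRCm38.p6, with the seed (bases 2 to 8) in capitals.
mmu-miR-206-3p: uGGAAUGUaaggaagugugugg
mmu-miR-133b-3p: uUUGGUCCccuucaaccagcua
The first lies at chr1:20679055-20679076 and the second at chr1:20682834-20682855, both on the plus strand. Their hairpins, Mir206 at chr1:20679010-20679082 and Mir133b at chr1:20682769-20682887, are 3686 bases apart, and both fall within the span of the long non-coding RNA gene Lincmd1 (chr1:20669882-20682958). The seeds, GGAAUGU and UUGGUCC, differ, and the GC content was 45.5% in miR-206 and 50% in miR-133b. Sequences are shown for these 2 of the 4 members. miR-1 and miR-133a are named alone.

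Some facts of the arrays bear on every value below. The sheets give intensities that had been multiplied by 1 factor per array in each sheet. The 0 h array of ATM-/- cells thus had factors of 1.24, 1.31 and 1.02 in the sheets of 4, 8 and 24 h. The brightness before that factor could be recovered, in scanner units, as the mean of 3 spots. The sheets of ATM-/- cells listed 185, 154 and 126 probes at 4, 8 and 24 h, against 311, 298 and 313 in ATM+/+ cells. The factors added -0.63, -0.79 and -0.05 to every log2 ratio of treated to 0 h brightness at 4, 8 and 24 h in ATM-/- cells, against -0.17, -0.54 and -0.79 in ATM+/+ cells. Listed probes at the 10th percentile had a 0 h brightness of 22.5 in ATM-/- cells and 23.7 in ATM+/+ cells. Arrays sat on 4 chips, with 0 and 4 h of a genotype on one chip and 8 and 24 h on another. Of the 7 markers of fibroblasts and mesenchyme, 6 probes were listed in each genotype, with a 0 h brightness from 23.7 to 827 (sum 1428) in ATM-/- cells and from 300 to 1010 (sum 4039) in ATM+/+ cells. In ATM-/- cells miR-21 was at 26 and the probe of miR-199a-3p and miR-199b at 23.7, near the dim end, against 1000 and 300 in ATM+/+ cells. miR-145 and miR-214 were well above that end in both genotypes.

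All 4 muscle miRNAs were listed at 0 h in both genotypes. In ATM-/- cells miR-206 (23.3) and miR-133b (24.7) were just above the 10th percentile of listed probes (22.5). Whether such values stand above background is not known, because the background correction is not given. mmu-miR-1 was the brightest of the 4. Its brightness in ATM-/- cells was 98.0 ± 1.0 at 0 h, 110 ± 14.6 at 4 h, 133 ± 12.1 at 8 h and 95 ± 4.58 at 24 h (SD of 3 spots). In ATM+/+ cells it was 261 ± 9.29, 218 ± 6.11, 211 ± 19.4 and 261 ± 17.6 at the same times. The ATM+/+ arrays were brighter at every time, and at 0 h miR-1 outshone 77.3% of listed probes in ATM-/- cells and 81.0% in ATM+/+ cells. Spot SDs hold no spread between arrays or cultures, so they do not show whether 2 arrays differ beyond array-to-array variation. Within ATM+/+ cells the means were lower at 4 and 8 h than at 0 h and level with it at 24 h, and within ATM-/- cells the mean was highest at 8 h.

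mmu-miR-206, the form restricted to skeletal muscle, had a brightness in ATM-/- cells of 23.3 ± 1.53 at 0 h, 38.7 ± 6.51 at 4 h and 38.3 ± 17.0 at 8 h, and was not listed at 24 h. In ATM+/+ cells it was 101 ± 5.03 at 0 h, 64.3 ± 7.02 at 4 h, 83.3 ± 9.07 at 8 h and 91.3 ± 6.66 at 24 h. At 0 h it outshone 12.4% of listed probes in ATM-/- cells and 63.0% in ATM+/+ cells. Every ATM-/- value lay below every ATM+/+ value.

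mmu-miR-133a had a brightness in ATM-/- cells of 33.3 ± 8.08, 57.7 ± 12.9, 23.7 ± 5.51 and 25.3 ± 4.04 at 0, 4, 8 and 24 h. The ATM+/+ values were 69.7 ± 2.31, 59.3 ± 9.07, 45.7 ± 1.53 and 25.3 ± 4.04, lower at each later time. The genotypes overlapped at 4 h within the spot SDs and were equal at 24 h, where both were near the 10th percentile of listed probes.

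mmu-miR-133b, which shares its locus with miR-206, had a brightness in ATM-/- cells of 24.7 ± 5.51 at 0 h and 40.3 ± 3.79 at 4 h and was not listed later. The ATM+/+ values were 63.0 ± 4.36, 49.5 ± 6.5, 40.0 ± 4.58 and 35.0 ± 21.0 at 0, 4, 8 and 24 h. It was below its 0 h value on every treated ATM+/+ array, with a coefficient of variation between spots of 60% at 24 h.

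**Figure D1:**
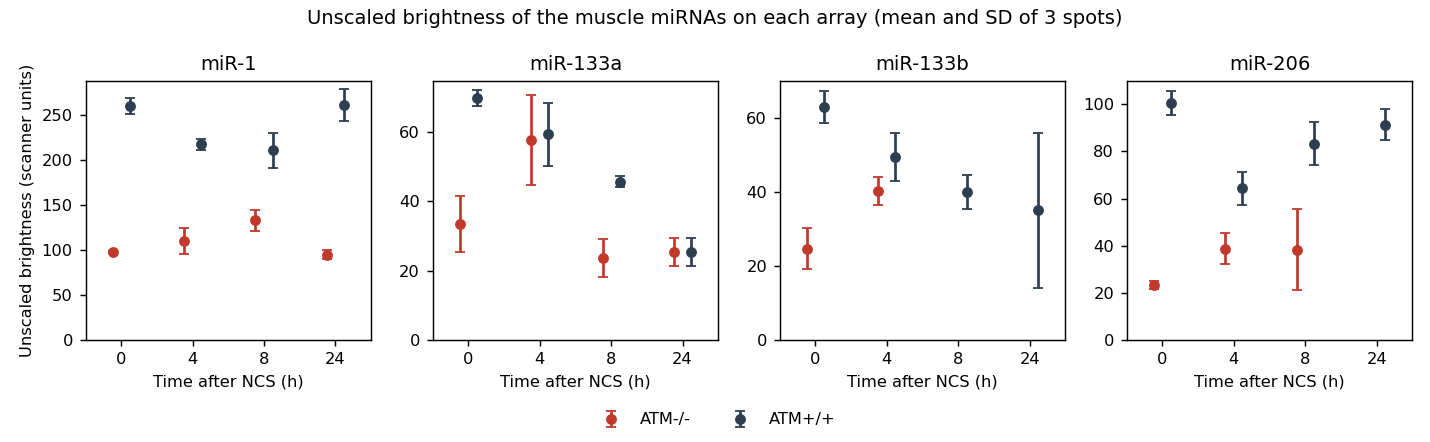
Unscaled brightness (scanner units, linear axis from 0) of each muscle miRNA against time after NCS, with ATM-/- arrays in red and ATM+/+ arrays in dark blue. Points are single arrays and bars are the SD of 3 spots. mmu-miR-1 is at 95 to 133 in ATM-/- cells and 211 to 261 in ATM+/+ cells, and missing points were not listed in a sheet.

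The response to NCS is given as the log2 of the deposited ratio to the 0 h array. The ratio table holds ratios to 2 decimals, and its scale differs from that of the sheets. miR-1 stood at -0.18, 0.26 and 0.01 at 4, 8 and 24 h in ATM-/- cells, against -0.42, -0.89 and -0.60 in ATM+/+ cells. miR-206 stood at -0.01, 0.23 and 0 in ATM-/- cells, against -0.60, -0.58 and -0.64 in ATM+/+ cells. In both members of the miR-1/miR-206 seed family the ATM-/- values lay close to 0 on either side and all ATM+/+ values lay below them. miR-206 was near the dim end at 0 h in ATM-/- cells, at 23.3 against 101 in ATM+/+ cells. The ATM-/- sheets did not list it at 24 h, nor miR-133b at 8 and 24 h. How much change so dim a probe can show was not tested. miR-133a stood at 0.06, -0.51 and -0.60 in ATM-/- cells, against -0.30, -0.92 and -1.60 in ATM+/+ cells. miR-133b stood at -0.23, -0.25 and -0.58 in ATM-/- cells, against -0.49, -0.94 and -0.67 in ATM+/+ cells. The miR-133 values thus overlapped between genotypes across times, although at each single time the ATM-/- value was the higher.

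Over all 431 features the median log2 ratio in ATM-/- cells was -0.23, 0.03 and 0 at 4, 8 and 24 h, against 0.03, 0.23 and -0.12 in ATM+/+ cells. The median of the 4 members was -0.10, -0.01 and -0.29 in ATM-/- cells, against -0.45, -0.90 and -0.66 in ATM+/+ cells. In ATM+/+ cells all 12 values, 4 members at 3 times, lay below the median of their array, and 4 of the 12 lay below its 10th percentile. In ATM-/- cells 4 of 12 lay below the median and 1 below the 10th percentile.

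**Figure D2:**
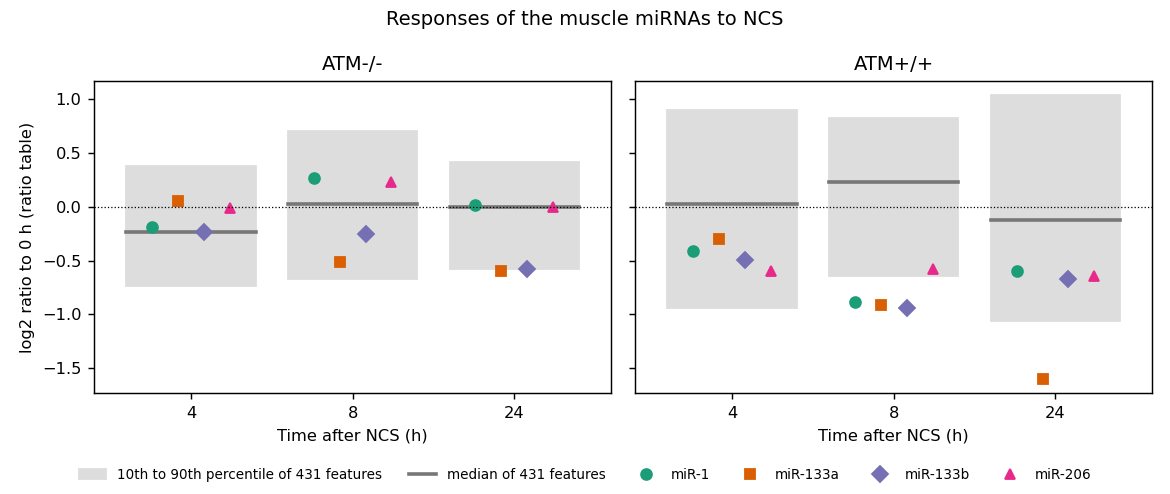
Log2 ratio to 0 h in the ratio table for each muscle miRNA (coloured symbols) at 4, 8 and 24 h, with ATM-/- cells on the left and ATM+/+ cells on the right. Grey boxes span the 10th to 90th percentile and grey lines mark the median of the 431 features; in ATM+/+ cells all 12 symbols lie below the grey line, and miR-133a at 24 h is lowest at -1.60.

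In the ratio table few of these values passed a 2-fold difference. No member was at least 2-fold lower in ATM-/- cells at 4, 8 or 24 h, against 4.41%, 3.02% and 2.55% of all features. In ATM+/+ cells no member was at least 2-fold lower at 4 or 8 h, against 9.74% and 4.18% of features. At 24 h miR-133a alone was, at a ratio of 0.33, against 13% of features. A value below 0 h on all 3 treated arrays was found for 1 of 4 members in ATM-/- cells, miR-133b, against 19.5% of features. In ATM+/+ cells it was found for 4 of 4 members, against 25.8%, and the single 0 h array enters all 3 comparisons of each member.

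Averaged over the 3 treated times, the log2 ratio in ATM-/- cells was 0.03 ± 0.22 for miR-1, 0.07 ± 0.14 for miR-206, -0.35 ± 0.36 for miR-133a and -0.35 ± 0.19 for miR-133b (SD over times). In ATM+/+ cells it was -0.63 ± 0.24 for miR-1, -0.61 ± 0.03 for miR-206, -0.94 ± 0.65 for miR-133a and -0.70 ± 0.23 for miR-133b. The median of these means was -0.16 in ATM-/- cells and -0.67 in ATM+/+ cells, where all features had -0.06 and 0.01. Counted from the lowest of 431 features, the members held places 81 to 308 in ATM-/- cells and 36 to 61 in ATM+/+ cells. miR-206 varied least over the ATM+/+ times and miR-133a most.

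Each response was tested with limma, a linear model fitted across all features with Benjamini-Hochberg adjustment. The 3 treated times served as repeats. The error drew on the spread between times in both genotypes and was moved towards a spread shared by all features. For miR-206 in ATM+/+ cells the SD over times was 0.03, and the SE of the fit was 0.36. No member was called in either genotype. In ATM-/- cells the adjusted p was 0.996 for each of the 4. The ATM+/+ values were 0.448 for miR-1, 0.439 for miR-206, 0.377 for miR-133a and 0.382 for miR-133b, and the 95% interval of the mean response ran from -1.47 to 0.20 for miR-1 and from -2.03 to 0.15 for miR-133a. The test called 0% of 431 features in ATM-/- cells and 0% in ATM+/+ cells. At an unadjusted p under 0.05 it found 4 higher and 0 lower features in ATM-/- cells and 39 higher and 21 lower features in ATM+/+ cells, with no member among them.

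Whether cells with and without ATM responded differently was tested as the ATM-/- response minus the ATM+/+ response. This difference was 0.67 ± 0.46 for miR-1, 0.68 ± 0.11 for miR-206, 0.59 ± 0.36 for miR-133a and 0.35 ± 0.31 for miR-133b (mean log2 ± SD over 3 times). For each member the ATM-/- response was the higher at 3 of 3 times. The share of all features that do so was not counted, and their median difference was -0.17. The single 0 h array of each genotype enters all 3 differences. None passed the limma test of the difference, with adjusted p of 0.829, 0.785, 0.894 and 0.914 in that order, and that test called 0% of features (8 higher and 19 lower at an unadjusted p under 0.05). The 95% interval for miR-206 ran from -0.42 to 1.78, which holds both 0 and a difference of 2-fold.

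Some comparisons leave out the 0 h array. Between 8 and 4 h, on separate chips and at different positions, ATM+/+ cells gave -0.47 for miR-1, 0.02 for miR-206, -0.61 for miR-133a and -0.45 for miR-133b, with 0.18 as the median of all features. Between 24 and 8 h, on the same chip, they gave 0.29, -0.07, -0.68 and 0.28 in that order, with a median of -0.19. Between 24 and 4 h, at the same position on separate chips, they gave -0.18, -0.04, -1.30 and -0.17, with a median of -0.04. Among the treated ATM+/+ arrays of the ratio table, miR-133a was thus lower at each later time, miR-1 and miR-133b were lowest at 8 h, and miR-206 was nearly level. The time of the lowest miR-133b value hung on the scale. Its unscaled brightness was 40.0 at 8 h and 35.0 at 24 h, where its spots had a coefficient of variation of 60%. In the authors' deposited table it had log2 ratios of -1.19 at 8 h and -1.64 at 24 h. ATM-/- cells gave 0.45 for miR-1, 0.24 for miR-206, -0.57 for miR-133a and -0.02 for miR-133b between 8 and 4 h, with a median of 0.26. Between 24 and 8 h their values were -0.25, -0.23, -0.08 and -0.33 in that order, with a median of 0.05, and between 24 and 4 h they were 0.20, 0.01, -0.66 and -0.34, with a median of 0.25. In ATM-/- cells too, miR-133a was lower at 8 and 24 h than at 4 h. These are differences between single arrays, with no test.

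The authors' deposited table, the comparison sheets, gave other values for the same arrays, some larger and some smaller in size. In the authors' deposited table miR-1 had log2 ratios of -0.45, -0.35 and -0.10 at 4, 8 and 24 h in ATM-/- cells, against -0.43, -0.84 and -0.79 in ATM+/+ cells. For miR-133a the authors' deposited table gave 0.17, -1.28 and -0.45 in ATM-/- cells, against -0.40, -1.15 and -2.25 in ATM+/+ cells. The 4 h value of miR-133b was 0.08 in ATM-/- cells in the authors' deposited table, where ATM+/+ cells had -0.51, -1.19 and -1.64 at 4, 8 and 24 h. miR-206 was at 0.10 and -0.07 at 4 and 8 h in ATM-/- cells, against -0.81, -0.81 and -0.93 in ATM+/+ cells in the authors' deposited table. On this scale 4 of 4 members again lay under 0 h on each treated ATM+/+ array, against 40.8% of the 284 probes in all 3 ATM+/+ sheets.

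The p-values in the authors' deposited table were under 0.05 for 3 of 9 member values in ATM-/- cells and for 12 of 12 in ATM+/+ cells. Over all probes listed in the 3 sheets of a genotype, 35.1% of p-values in ATM-/- cells and 59.1% in ATM+/+ cells of the authors' deposited table were under 0.05. In the authors' deposited table those of ATM-/- cells ran from 0.00696 to 0.856 and those of ATM+/+ cells from 8.40267e-06 to 0.0259. Each of the 1387 deposited p-values equalled, within 1e-06, a pooled-variance comparison of 3 spots on one array with 3 spots on the other. They measure the spread between spots of 2 arrays and hold no spread between cultures or animals.

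Before the authors' scaling factor, ATM-/- cells gave log2 ratios to 0 h of 0.17, 0.44 and -0.04 for miR-1 at 4, 8 and 24 h, and ATM+/+ cells gave -0.26, -0.30 and 0.00. miR-206 was at 0.73 and 0.72 at 4 and 8 h in ATM-/- cells, against -0.65, -0.27 and -0.14 at 4, 8 and 24 h in ATM+/+ cells. miR-133a was at 0.79, -0.49 and -0.40 in ATM-/- cells, against -0.23, -0.61 and -1.46 in ATM+/+ cells. miR-133b was at 0.71 at 4 h in ATM-/- cells, against -0.35, -0.66 and -0.85 in ATM+/+ cells. Without the factor, 3 of 4 members lay under 0 h on each treated ATM+/+ array, with miR-1 at 24 h the exception, against 19.7% of 284 probes. The median of listed probes in ATM-/- cells was 0.71, 0.69 and -0.03 at 4, 8 and 24 h, against 0.36, 0.60 and 0.65 in ATM+/+ cells, so the treated arrays were mostly brighter than 0 h while the members were not in ATM+/+ cells. The 12 ATM+/+ values lay below the median of their array by -0.33 to -1.48 in the ratio table and by -0.59 to -2.11 in the sheets. Taking out a factor that is the same for all probes of an array leaves the sheets' distances to the median as they are. Of the 9 listed ATM-/- values, 5 lay below the median in the sheets.

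**Figure D3:**
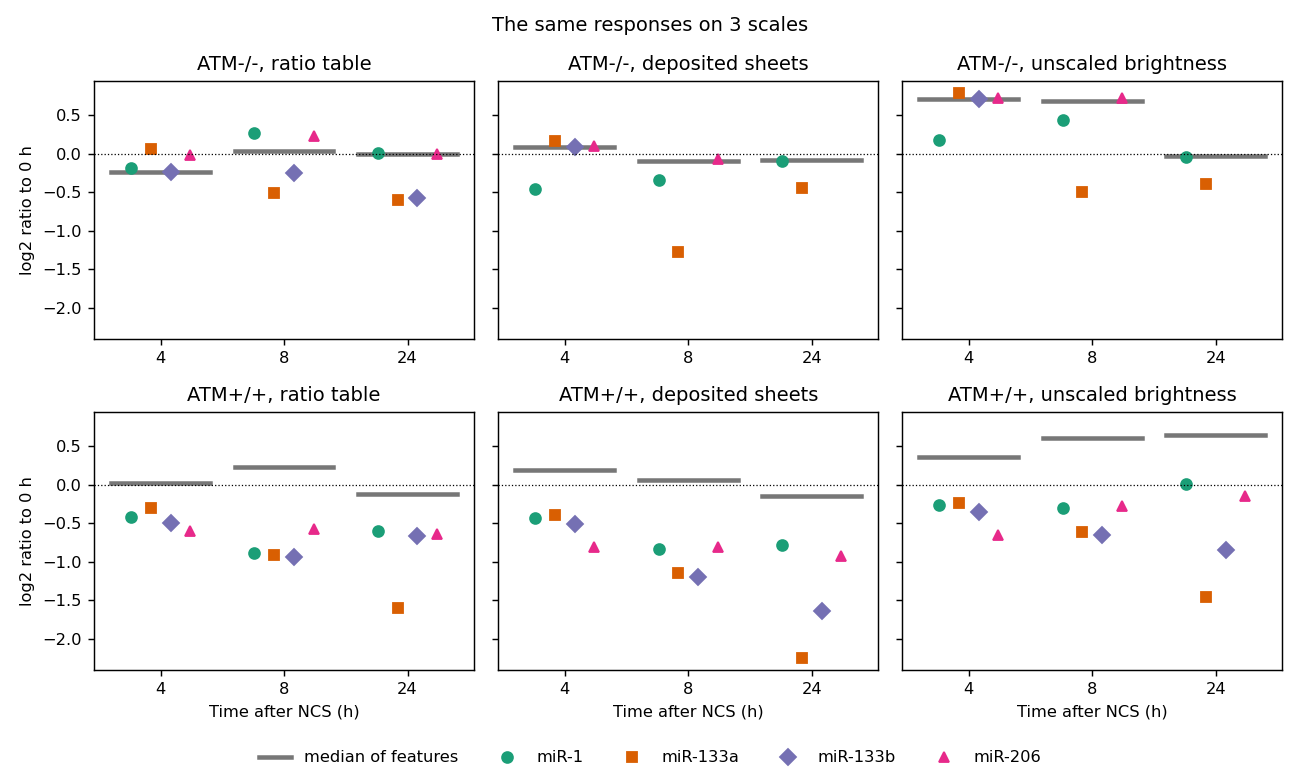
Log2 ratio to 0 h of the muscle miRNAs at 4, 8 and 24 h on 3 scales (ratio table, deposited sheets and brightness before scaling, left to right), with ATM-/- cells above and ATM+/+ cells below. Grey lines are the medians of all features or listed probes; the ATM+/+ symbols lie below the grey line in the ratio table and in the sheets, the third panel keeps the sheets' distances to that line by construction, and the place of the symbols against 0 moves with the scale.

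The level of a member in ATM-/- against ATM+/+ cells could be fitted for miR-1 and miR-133a, the 2 members among the 120 probes in all 6 sheets. The sheets of the genotypes were normalized separately. Within each genotype the sheets were matched through the 0 h array to the 4 h sheet of that genotype. The 2 genotypes were not brought to a common scale. After this matching miR-1 was at 122, 88.8, 95.7 and 114 intensity units at 0, 4, 8 and 24 h in ATM-/- cells, against 276, 205, 154 and 160 in ATM+/+ cells. The ATM-/- arrays were lower at 4 of 4 times, by a mean log2 difference of -0.89 (SE 0.26; limma adjusted p = 0.00848). The 4 times served as repeats in this fit, so its p-values hold no spread between cultures or embryos. miR-133a was at 41.4, 46.4, 17.0 and 30.3 units in ATM-/- cells, against 73.8, 56.0, 33.3 and 15.5 in ATM+/+ cells, lower at 3 of 4 times, with a mean of -0.28 (SE 0.32; limma adjusted p = 0.490). The same test called 47.5% of the 120 probes lower and 2 higher in ATM-/- cells, with a median difference of -0.69, so miR-1 lay close to the bulk of probes.

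The direction of this difference hung on the scaling. With arrays centred on their medians miR-1 was at 0.12 and miR-133a at 0.74 (limma adjusted p = 0.781 and 0.0295), and with arrays scaled to their 75th percentile they were at 0.39 and 1.0 (limma adjusted p = 0.256 and 0.00231). The balance of calls turned with it. It went from 2 higher and 57 lower on the deposited scale to 42 and 25 after centring. It was 59 and 23 at the 75th percentile and 33 and 25 after quantile normalization. After centring and at the 75th percentile the fit gave miR-1 and miR-133a the same SE (0.30), a spread shared by the probes. The genotype difference of miR-133a on the deposited scale had an SD over times of 0.88. For miR-206 the unscaled brightness differed by -2.11, -0.73 and -1.12 on the log2 scale at 0, 4 and 8 h, and for miR-133b by -1.35 and -0.30 at 0 and 4 h, ATM-/- minus ATM+/+. The median unscaled brightness of the 120 probes was 76.2, 119, 124 and 77.5 at 0, 4, 8 and 24 h in ATM-/- cells, against 198, 199, 240 and 299 in ATM+/+ cells. Fewer cells of a type and less RNA per cell cannot be told apart in these bulk samples.

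**Figure D4:**
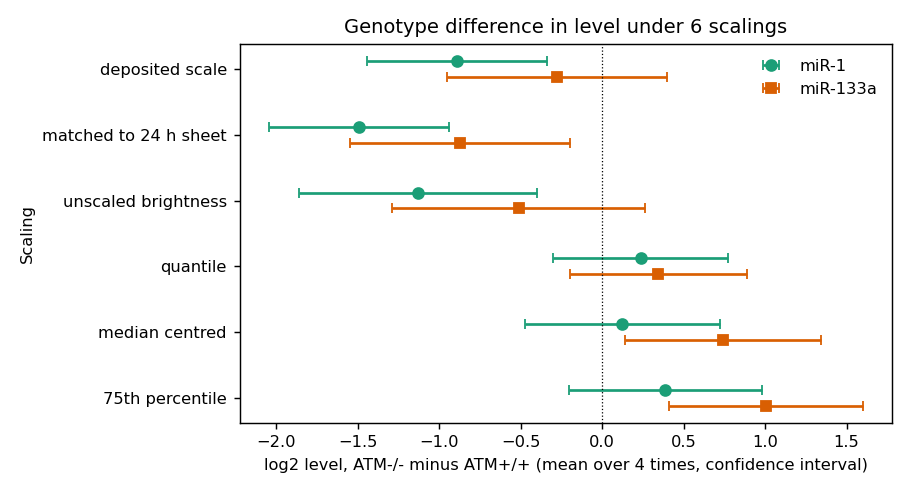
Mean log2 level of miR-1 and miR-133a, ATM-/- minus ATM+/+, over 4 times with its 95% interval from limma, under 6 ways of scaling the arrays (rows). miR-1 is at -0.89 on the deposited scale and 0.12 after median centring, so points lie on both sides of 0.

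The members were set beside other miRNAs by the root mean square difference of their log2 ratios over the 6 treated arrays, among 271 named miRNAs. The nearest to miR-1 was miR-206 (0.165), followed by miR-669a (0.252) and miR-329 (0.272), where the median miRNA was at 0.760. The nearest to miR-206 were miR-669a (0.162), miR-1 (0.165) and miR-450a-3p (0.241). For miR-133b they were miR-1 (0.324), miR-296-3p (0.342) and miR-206 (0.355), ahead of its relative miR-133a at place 10. For miR-133a they were miR-297c (0.322), miR-706 (0.359) and miR-452 (0.407), and miR-133b came next (0.421). The 6 arrays share 2 0 h arrays and their scaling, and no test was made of these distances.

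Other miRNAs linked to muscle lay above 0 h in ATM+/+ cells. Of the muscle-enriched miR-208a, miR-208b, miR-499 and miR-486, the only one measured was miR-486, which also marks red blood cells. It had a mean log2 ratio of 0.01 ± 0.08 in ATM-/- cells and 0.93 ± 0.17 in ATM+/+ cells, where its 0 h brightness was 25.0, near the dim end. It was listed in no ATM-/- sheet. Of 16 miRNAs of wider expression that are reported to act in myogenic differentiation, 15 were measured. Their median of means was 0.12 in ATM-/- cells, with 9 above 0, and 0.81 in ATM+/+ cells, with 15 above 0. The medians of all features were -0.06 and 0.01, and those of the 272 named features were -0.01 and 0.17. In ATM+/+ cells 2 of them averaged at least 2-fold higher, miR-125b-5p at 1.19 ± 0.13 and miR-29b at 1.13 ± 0.09, where 6.03% of all features did. In ATM-/- cells none of them did, against 0.928% of all features. miR-221 and miR-222, which repress the cell cycle inhibitor p27, were at 0.27 ± 0.10 and 0.53 ± 0.45 in ATM-/- cells and at 0.89 ± 0.12 and 0.84 ± 0.12 in ATM+/+ cells. miR-155 was at 0.23 ± 0.10 in ATM-/- cells and was the lowest of the 15 in ATM+/+ cells, at 0.15 ± 0.25. limma called none of the 15 in either genotype. Of the passenger strands of the 4 member hairpins, none was named in a sheet.

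The fibroblast and mesenchyme markers had a median of means of 0.18 in ATM-/- cells, with 3 of 5 probes above 0, and 0.87 in ATM+/+ cells, with 5 of 5 above 0. Of 7 epithelial markers 3 were measured, with medians of -0.43 in ATM-/- cells and -0.06 in ATM+/+ cells, and the brightest, miR-141, was at 132 and 347 at 0 h. Both measured blood markers of 5, miR-223 and miR-150, were below 0 on average in ATM+/+ cells, with medians of -0.08 in ATM-/- and -0.35 in ATM+/+ cells and a 0 h brightness of at most 31 in ATM+/+ cells. The neural miR-129-5p was at 0.29 ± 0.28 in ATM-/- cells and 0.17 ± 0.17 in ATM+/+ cells, and the endothelial miR-126-5p at -0.41 ± 0.45 and -0.12 ± 0.46. The liver marker miR-122 was not measured. The part of any of these markers in the values of the muscle miRNAs was not tested.

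**Figure D5:**
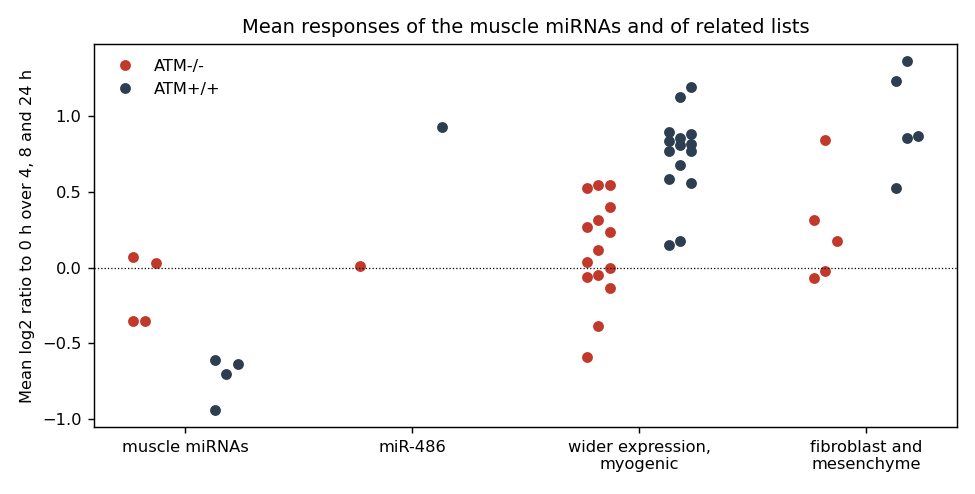
Mean log2 ratio to 0 h over 4, 8 and 24 h for single miRNAs (1 point per probe) in 4 groups, with ATM-/- cells in red and ATM+/+ cells in dark blue. In ATM+/+ cells the muscle miRNAs lie between -0.94 and -0.61, and the 15 miRNAs of wider expression lie above 0, from 0.15 to 1.19.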

How the data were processed

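Per the file headers, the deposited value table holds a ratio of each array to the 0 h array of its genotype, and 6 deposited comparison sheets hold a normalized intensity, a coefficient of variation, a log2 ratio and a p-value per probe. The labels' protocols give Trizol extraction and labelling from 4 µg of total RNA. The sources used here give neither the scanner processing nor the background correction. The deposited intensities were whole multiples of 1/6 of 1 factor per array in each sheet (tolerance 0.001), and dividing by it gave the unscaled brightness. Its brightest probe reached 60996 to 65476, and 448 of 448 probes listed at 0 h in more than 1 sheet then had equal values (relative tolerance 1e-06).

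Files hold ratios, not expression levels, so log2 of the deposited ratio was tested with no pseudocount. Responses were fitted on 431 features with limma 3.58.1 (R 4.3.3; lmFit, eBayes, 4 residual degrees of freedom) and genotype levels on 120 probes with time as a block (3 residual degrees of freedom). A call had a Benjamini-Hochberg adjusted p under 0.05. On simulated data, the response fit recovered 13.5% of log2 changes of 1 and 95.5% of changes of 2 over 431 features in ATM+/+ cells. The simulation changed 200 of the 431 features. It also gave the 0 h arrays noise of their own, whereas the deposited 0 h ratios are fixed. Its recovery therefore need not hold where few features change. Named were the members, the 3 miRNAs nearest to each and the lists' measured members. The members and lists were chosen with earlier results of these data known.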

Additional observations from a re-analysis of the deposited data

Results flagged for a closer look

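miR-206 before the authors' scaling factor moved in opposite directions in the 2 genotypes on every listed array. Its log2 ratio to 0 h was 0.73 and 0.72 at 4 and 8 h in ATM-/- cells, against -0.65, -0.27 and -0.14 at 4, 8 and 24 h in ATM+/+ cells. The difference was not tested on this scale, because miR-206 was not listed at 24 h in ATM-/- cells. The medians of listed probes in ATM-/- cells were 0.71 and 0.69 at 4 and 8 h, level with miR-206. In ATM+/+ cells they were 0.36, 0.60 and 0.65 at 4, 8 and 24 h. The spot SDs of miR-206 overlapped between 0 h (23.3 ± 1.53) and 8 h (38.3 ± 17.0) in ATM-/- cells. They also overlapped between 0 h (101 ± 5.03) and 24 h (91.3 ± 6.66) in ATM+/+ cells.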

How the results depend on the processing

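Over 132 alternative fits of the members' responses and of their differences, 0 had an adjusted p under 0.05 by limma, and the lowest was 0.0801. All alternatives that could be fitted kept the sign for the 4 members in ATM+/+ cells and for the 4 differences, but not always the size. Several of them could not change the sign. Fits on named or brighter probes alone, and with an intensity trend and robust prior, leave the estimate as it is. Leaving out 1 time or blocking by chip keeps times that all had the same sign. ATM+/+ responses ran from -0.84 to -0.19 (unscaled) for miR-1, from -1.27 to -0.30 (chip as a block) for miR-133a, from -1.12 to -0.49 for miR-133b and from -0.86 to -0.35 for miR-206, and without the 24 h array miR-133a was at -0.61. The differences ran from 0.23 (chip as a block) to 0.88 for miR-1, from 0.36 to 0.77 for miR-133a, from 0.17 (without 8 h) to 0.53 for miR-133b and from 0.58 to 0.86 for miR-206. With the chip as a block, which leaves 4 against 0 h, the responses in ATM-/- cells turned to -0.18 for miR-1, 0.057 for miR-133a and -0.014 for miR-206. The miR-1 response in ATM-/- cells was -0.30 in the sheets and -0.26 in unscaled brightness centred on the median of listed probes, a setting added after seeing the data. Leaving out 1 time gave ATM-/- responses from -0.085 (without 8 h) to 0.14 for miR-1 and from -0.0072 (without 8 h) to 0.11 for miR-206, and genotype levels from -1.03 to -0.79 for miR-1 and from -0.69 to -0.05 for miR-133a. The count of features called in ATM+/+ cells was 24 in the sheets and 2 with an intensity trend and robust prior. Genotype levels of miR-1 were 0.12 after centring, 0.24 after quantile normalization and 0.39 at the 75th percentile, and those of miR-133a were 0.74, 0.34 and 1.0. Matched to the 24 h sheet, miR-1 was at -1.49 (limma adjusted p = 0.000101), miR-133a was at -0.87 (limma adjusted p = 0.0196) and 101 probes were called. The cause of these shifts was not tested. In ATM-/- cells miR-133b and miR-206 are missing from a sheet, so their sheet and unscaled settings could not be fitted. Genotypes were paired by time in the level fit. No paired analysis by replicate number was possible because the labels give none. Dim signal limits miR-133b and miR-206 in ATM-/- cells.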
